A study of Mus musculus with 8 samples.

Results

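The semaphorin, plexin, neuropilin, Eph and ephrin genes encode cell-surface and secreted guidance cues with their receptors. Their expression was examined in primary mouse myoblasts, the cells that satellite cells, the stem cells of muscle, give rise to, with and without the histone H3 lysine 27 demethylase UTX (gene Kdm6a). Genes were chosen by symbol. Each of the 3 expression tables held 52 such genes: 20 semaphorins, 9 plexins, neuropilin-2 (Nrp2), 14 Eph receptors and 8 ephrins. A gene was kept in a table when its estimate was marked OK and reached at least 1 FPKM (fragments mapped, scaled to transcript length and library size) in either column. By this rule 36 genes were kept for females, 37 for males and 36 for KI. In all, 41 of the 13602 genes kept in at least 1 table belonged to these families, and 32 were kept in every table. The neuropilin-1 gene shared a locus entry with a microRNA, so its name did not match and it is described apart.

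The 8 libraries formed 6 groups of differentiating myoblasts, all from B6/129 mice. Satellite cells of the knockout and wild-type mice were sorted for a Cre-activated tdTomato reporter and differentiated for 24 h. The KI libraries carry the same protocol text, which names only the knockout and wild-type mice. Female KO mice carried UTX-Floxed, Pax7-CreER and Rosa26-Floxed-TdTomato alleles, and female WT mice Pax7-CreER and Rosa26-Floxed-TdTomato. Male KO and male WT libraries have no genotype label beyond their titles, and neither do the female KI and female Ctrl-KI libraries. What the KI allele changes is not stated. The growth medium held 20% serum, 2.5 ng/ml fibroblast growth factor (FGF) and 2.5 µM 4-hydroxytamoxifen, which activates CreER, for KO and WT cells alike. The KI and Ctrl-KI libraries carry the same medium text. Pax7 drives this Cre, so deletion starts in satellite cells and their descendants. Ages and the number of animals behind a library are not stated. There was 1 library in each KO and WT group, and 2 libraries in each KI group that were deposited as 1 pooled column. No single comparison therefore has a replicate check or a p-value, and the deposited confidence intervals are the only error given.

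Semaphorins are ligands that mostly repel or collapse advancing cell edges. Class 3 semaphorins are secreted and act through neuropilins paired with A-type plexins, except for Sema3E, which binds plexin-D1 directly. Classes 4 to 6 span the membrane, and Sema7A is anchored to it by a lipid. Eph receptors are tyrosine kinases that bind ephrins on neighbouring cells, with signals passing into both cells. A-type ephrins are lipid-anchored and mostly bind EphA receptors, whereas B-type ephrins span the membrane and mostly bind EphB receptors. In muscle these families are known for positioning migrating precursors, guiding motor axons and patterning vessels.

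Kdm6a itself was 16.9 FPKM in female KO and 20.8 FPKM in female WT cells, with overlapping deposited intervals of 7.95 to 25.8 and 9.71 to 31.9. It was 2.08 FPKM in male KO and 7.87 FPKM in male WT cells, and 13.2 FPKM in KI and 12.8 FPKM in Ctrl-KI cells. These values cover the whole gene, so they check a deletion of part of it weakly. Precision differed between tables. Relative to its FPKM, the median gene had a deposited interval 119% wide in female KO and 118% wide in female WT cells, 165% wide in both male columns, and 39.8% wide in KI and 39.7% wide in Ctrl-KI cells. Ratios below are log2((FPKM + 1)/(FPKM + 1)), KO over WT or KI over Ctrl-KI, formed within a table. Over all genes the median ratio was -0.08 in females, -0.02 in males and -0.04 in the KI table. Rescaling to TPM (values set to an equal sum in each column) over all loci gave medians of 0.10, -0.70 and -0.77 in the same order. Loci without a symbol accounted for 86.1% of all FPKM in male KO and 72.8% in male WT cells, and for 77.6% in KI and 57.1% in Ctrl-KI cells. Under that scaling, TPM over loci with a symbol or median centring, 3 of the kept guidance genes in females, 9 in males and 21 in the KI table changed direction, none of them past 2-fold. The shift applies to every gene of a table.

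Other genes in the same libraries moved with the groups. The 10 differentiation markers (9 in the male table) summed to 4891 FPKM in female KO and 11657 FPKM in female WT cells, to 4921 FPKM in male KO and 22494 FPKM in male WT cells, and to 16700.5 FPKM in KI and 20203 FPKM in Ctrl-KI cells. The 11 fibro-adipogenic markers, genes of the connective tissue cells of muscle, summed to 621 FPKM in female KO against 289 in female WT, to 155 in male KO against 56.7 in male WT, and to 418 in KI against 41.1 in Ctrl-KI cells. Myog, a transcription factor of early differentiation, was 817 FPKM in female KO and 1305 in female WT, 961 in male KO and 3424 in male WT, and 2827 in KI and 3201 in Ctrl-KI cells. Of the fibro-adipogenic genes 5 stayed under 1 FPKM in both male columns, and of these Lum was listed at 0 in both. Gsn gave 69.7 FPKM of the male KO sum and 26.4 FPKM of the male WT sum. Not every gene followed the sums: Gsn and Tcf7l2 were lower in female KO cells, Tcf7l2 in KI cells and Col15a1, under 1 FPKM, in male KO cells. The endothelial markers summed to 44.7 FPKM in female KO and 28.6 in female WT, to 74.6 in male KO and 3.56 in male WT, and to 11.3 in KI and 3.79 in Ctrl-KI cells. In males 7 of the 12 endothelial markers stayed under 1 FPKM in both columns, and Tie1 was listed at 0 in male WT. Emcn alone gave 40.6 FPKM of the male KO sum, and without it the others summed to 34.0 FPKM in male KO and 3.53 in male WT. A single gene carried 3 further lists. The immune markers summed to 16.1 FPKM in female KO and 8.92 in female WT, to 9.14 in male KO and 1.46 in male WT, and to 32.7 in KI and 1.03 in Ctrl-KI cells. Without their top gene (Cd68 in females, Lyz2 in males and KI) the sums were 4.57 in female KO and 1.67 in female WT, 1.20 in male KO and 0.778 in male WT, and 1.75 in KI and 0.747 in Ctrl-KI cells. Each table had 5 immune genes under 1 FPKM in both columns, and Itgam among them was lower in each mutant. The pericyte and smooth muscle markers summed to 364 FPKM in female KO and 704 in female WT, 738 in male KO and 2020.4 in male WT, and 1866 in KI and 2307 in Ctrl-KI cells. Without Acta2, a smooth muscle actin, the other 7 summed to 51.3 FPKM in female KO and 41.8 in female WT, 14.7 in male KO and 20.1 in male WT, and 46.3 in KI and 17.5 in Ctrl-KI cells. Of these Pdgfrb was 26.7 FPKM in KI and 0.442 in Ctrl-KI cells. Erbb3 carried the Schwann and glial sums, which were 48.2 FPKM in female KO and 83.1 in female WT, 12.5 in male KO and 81.8 in male WT, and 88.1 in KI and 70.7 in Ctrl-KI cells. Without it they were 11.5 in female KO and 9.76 in female WT, 1.05 in male KO and 0.410 in male WT, and 3.31 in KI and 0.244 in Ctrl-KI cells. The satellite cell and myoblast markers summed to 1149 FPKM in female KO and 1875 in female WT, 2145 in male KO and 3432 in male WT, and 2366 in KI and 3204 in Ctrl-KI cells. Vessel and stromal cells also express several of the genes described here, and the part of these markers in the results was not tested. In bulk RNA, fewer cells of a type and less RNA per cell cannot be told apart.

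In female KO cells 3 of the 36 kept guidance genes stood 2-fold or more above female WT cells, where 4.49% of all 12344 genes did, and 3 stood 2-fold or more below them, where 4.40% did. The higher ones were Nrp2, Efnb2 and Sema6d, and the lower ones Sema3b, Plxna3 and Sema6c. The median ratio of the 36 was -0.04. In male KO cells 11 of 37 exceeded male WT by 2-fold or more, where 9.90% of all 11440 genes did, and 4 fell short by as much, where 6.47% did. The male median was 0.57. The higher genes were Ephb6, Efnb2, Efna5, Epha1, Epha2, Sema7a, Ephb4, Epha4, Efna4, Sema3e and Sema6d, and the lower ones Sema3b, Ephb3, Ephb2 and Plxna2. In KI cells 3 of 36 exceeded Ctrl-KI by 2-fold or more, where 3.86% of all 11084 genes did, and 2 fell short by as much, where 0.893% did, with a median of 0.12. The higher ones were Nrp2, Efnb2 and Sema7a, and the lower ones Sema3d and Sema3e. Genes that passed the filter through the mutant column alone had to lie above the control. These were Efna5 and Epha8 in females, Efna2, Efna3, Epha1 and Epha7 in males, and Efna1, Efna3, Epha1 and Nrp2 in the KI table. Epha3 passed in males through the WT column alone.

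By the deposited intervals, fewer genes stood apart in the knockouts. In females 0 guidance genes were higher with intervals apart, against 0.664% of all genes, and 1, Sema3b, was lower, against 0.235%. In males 1, Ephb6, was higher, against 0.603% of all genes, and 0 were lower, against 0.262%. In the KI table, where intervals were narrowest, 9 were higher, against 8.27% of all genes, and 5 lower, against 3.73%. The KI genes that were higher in this way were Efna1, Efna2, Efnb2, Epha2, Epha4, Ephb3, Ephb4, Nrp2 and Sema7a, and those lower were Ephb2, Plxna2, Sema3d, Sema3e and Sema5a. Of these 9 higher ones, Efna2, Epha2, Epha4, Ephb3 and Ephb4 changed direction under TPM over all loci.

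**Figure D1:**
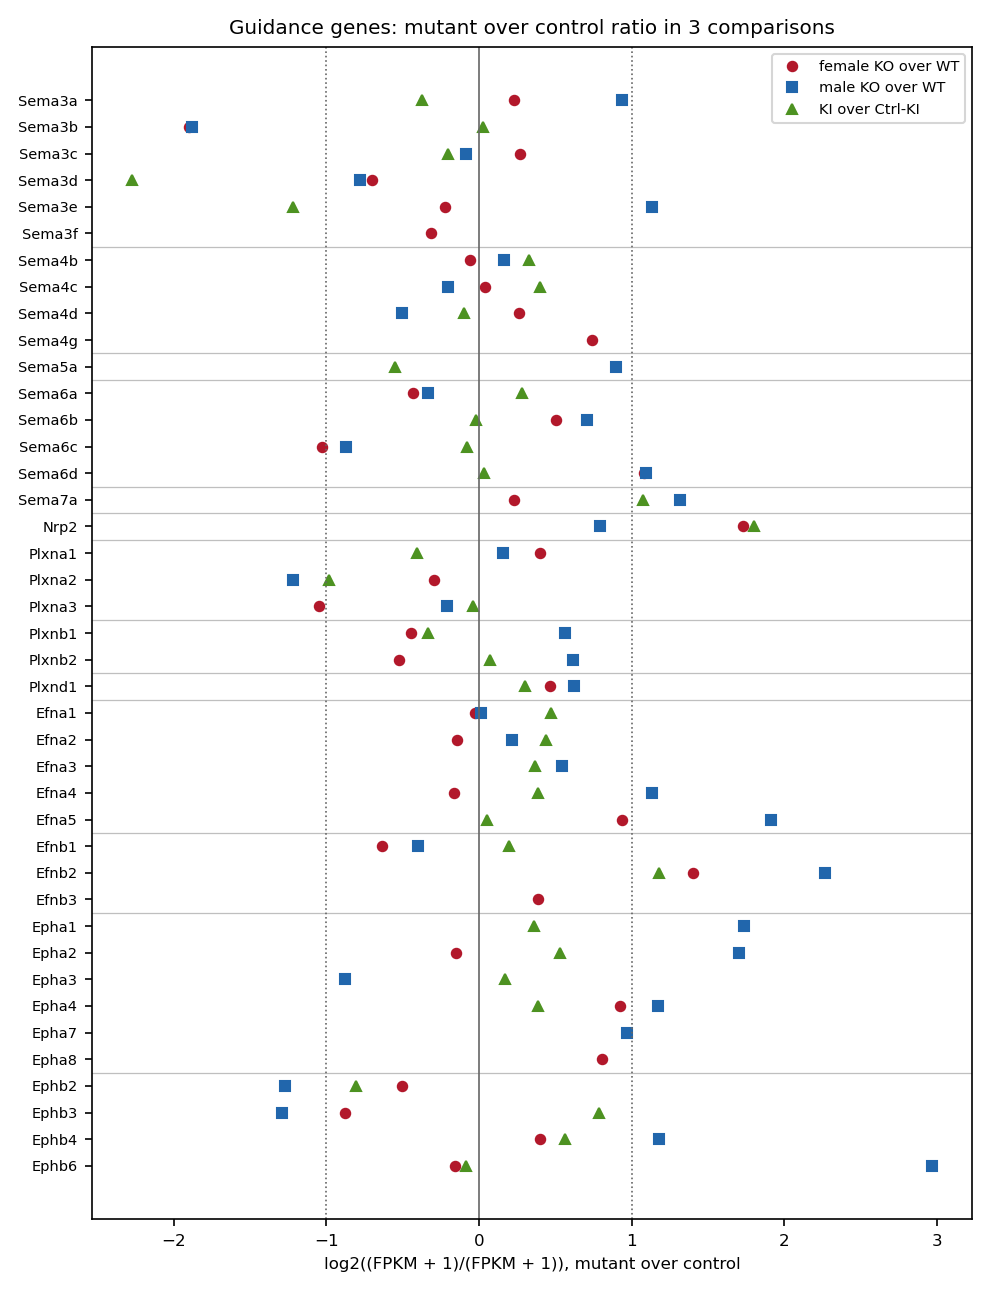
Log2 ratio of mutant over control for each of the 41 kept genes, ordered by family, in the female KO (circles), male KO (squares) and KI (triangles) tables. Dotted lines mark 2-fold, and a missing symbol means that the gene was not kept in that table. Efnb2 lies right of the 2-fold line in every table, Sema3b near -1.9 in both knockouts and at 0.02 in the KI table, and Sema3d at -2.27 in the KI table.

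Among the class 3 semaphorins, Sema3b was lower in the knockouts of both sexes and not in KI cells. Sema3b, a ligand that binds neuropilins, lies on mm9 chromosome 9. Its locus entry ran from 107500446 to 107511572 in females, from 107478840 to 107511572 in males and from 107489910 to 107513254 in the KI table. It had 4.44 FPKM in female KO and 19.3 FPKM in female WT cells, a log2 ratio of -1.90. Its bounds were 1.48 and 7.40 in female KO and 8.78 and 29.8 in female WT cells, which did not overlap. In males it had 3.56 FPKM in KO and 15.8 FPKM in WT cells, a log2 ratio of -1.88, but with wide intervals of 0 to 9.39 and 0.0838 to 31.5. For KI the gene had 14.7 FPKM in KI and 14.5 FPKM in Ctrl-KI cells, a log2 ratio of 0.02 that became -0.74 under TPM over all loci. The WT and Ctrl-KI levels of this gene were thus of similar size in all 3 tables, and the low values were those of the 2 KO columns. The locus entries behind these levels differed in extent. Sema3f, the neighbour of Sema3b on chromosome 9, was kept only in females, at 2.21 FPKM in KO and 2.99 FPKM in WT cells.

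Sema3d and Sema3e were the guidance genes that differed most downward in KI cells. Sema3d had 9.07 FPKM in KI and 47.6 FPKM in Ctrl-KI cells, with intervals of 7.35 to 10.8 and 38.6 to 56.5 apart from each other and a log2 ratio of -2.27. It was also lower in the knockouts, at 1.40 FPKM in female KO and 2.90 FPKM in female WT cells and at 23.7 FPKM in male KO and 41.5 FPKM in male WT cells. The log2 ratios were -0.70 and -0.78, less than 2-fold with the pseudocount of 1 FPKM, and the intervals overlapped. Without the pseudocount, the female KO value of Sema3d was 0.483 of the female WT value. Sema3e, the ligand of plexin-D1, went in different directions. It had 11.3 FPKM in KI and 27.5 FPKM in Ctrl-KI cells, a log2 ratio of -1.22 with intervals apart, whereas it had 77.4 FPKM in male KO and 34.8 FPKM in male WT cells, a log2 ratio of 1.13 with overlapping intervals of 14.5 to 140 and 9.21 to 60.3. In females it was 4.49 FPKM in KO and 5.40 FPKM in WT cells.

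The other secreted members stayed within 2-fold of their controls. Sema3a, the founding repellent of the class, had 23.5 FPKM in male KO and 11.8 FPKM in male WT cells (log2 ratio 0.94), 1.67 in female KO and 1.28 in female WT cells, and 5.59 in KI and 7.52 in Ctrl-KI cells. Sema3c had 6.44 FPKM in female KO and 5.16 in female WT cells, 20.0 in male KO and 21.3 in male WT cells (a difference that changed sign under TPM over loci with a symbol), and 17.0 in KI and 19.8 in Ctrl-KI cells. Sema3g stayed under 1 FPKM in every column. Sema3a, Sema3c, Sema3d and Sema3e lie on the same stretch of mm9 chromosome 5, from the start of Sema3d at 12383166 to the end of Sema3c at 17236085, yet their ratios ran from -2.27 to -0.20 in the KI table and from -0.78 to 1.13 in males. Genes of the same stretch therefore did not share a direction in the male comparison, although under TPM over all loci the male ratio of Sema3a was 0.17 and that of Sema3e 0.34.

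**Figure D2:**
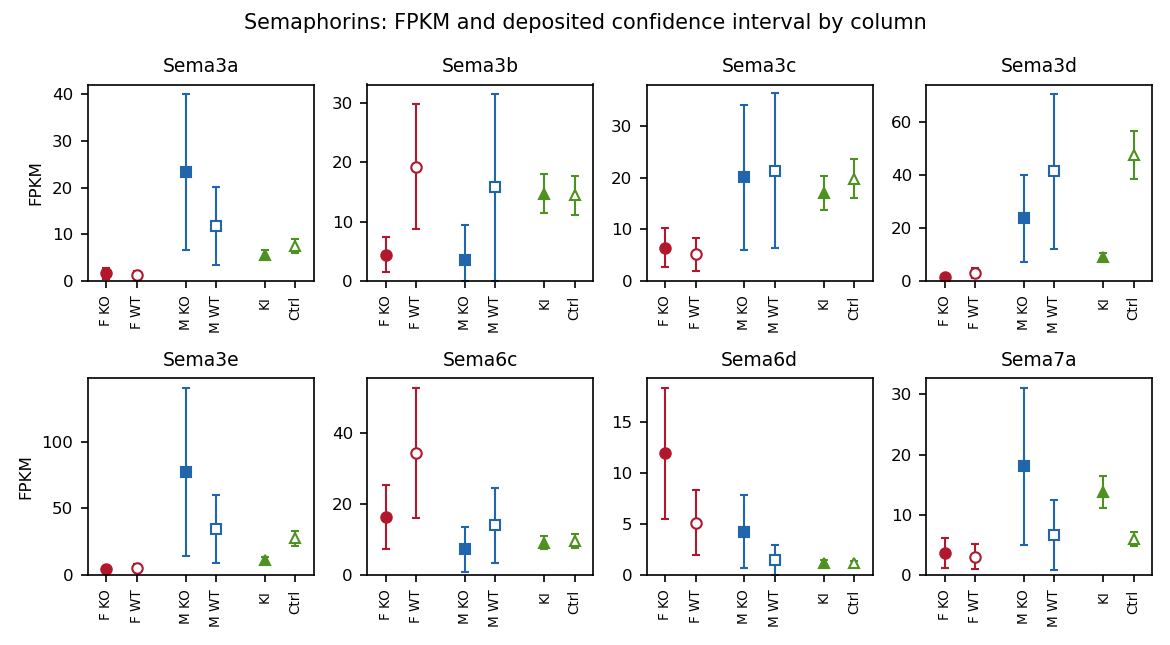
FPKM of 8 semaphorins in each column, with the deposited confidence interval as the bar. Filled symbols are female KO, male KO and KI, and open symbols are female WT, male WT and Ctrl-KI; F and M stand for female and male. The intervals of Sema3b are apart in females, those of Sema3d, Sema3e and Sema7a are apart in the KI table, and all male intervals shown overlap.

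Among the membrane-bound semaphorins, Sema6c and Sema6d differed in opposite directions in both knockouts. Sema6c had 16.4 FPKM in female KO and 34.4 FPKM in female WT cells (log2 ratio -1.03), and 7.22 FPKM in male KO and 14.0 FPKM in male WT cells (log2 ratio -0.87). Sema6d, a ligand of plexin-A1, had 11.9 FPKM in female KO and 5.11 FPKM in female WT cells (log2 ratio 1.08), and 4.26 FPKM in male KO and 1.47 FPKM in male WT cells (log2 ratio 1.09). In KI cells, where both changed sign with the scaling, Sema6c had 9.12 FPKM against 9.67 in Ctrl-KI cells and Sema6d had 1.20 FPKM against 1.15 in Ctrl-KI cells. The deposited intervals of both genes overlapped in every table. Sema6b was 2.94 FPKM in female KO and 1.78 in female WT cells, and 11.6 in male KO and 6.70 in male WT cells, a male log2 ratio of 0.71 that changed sign under TPM over all loci. Sema6a was 3.99 FPKM in female KO and 5.72 in female WT cells, 15.1 in male KO and 19.3 in male WT cells, and 28.9 in KI and 23.5 in Ctrl-KI cells, where TPM over all loci turned the direction.

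Sema7a was higher in all 3 mutants. This ligand of plexin-C1 and of integrins had 3.72 FPKM in female KO and 3.03 FPKM in female WT cells, a log2 ratio of 0.23. It had 18.1 FPKM in male KO and 6.66 FPKM in male WT cells (log2 ratio 1.31), and 13.8 FPKM in KI and 6.03 FPKM in Ctrl-KI cells (log2 ratio 1.07), where the intervals were apart. Its receptor gene Plxnc1 did not exceed 0.342 FPKM in any column.

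The kept class 4 genes stayed within 2-fold of their controls. Sema4c, the highest of them and a ligand of plexin-B2, had 27.4 FPKM in female KO and 26.6 in female WT cells, 12.2 in male KO and 14.2 in male WT cells, and 15.2 in KI and 11.3 in Ctrl-KI cells, where TPM over all loci turned the direction. Sema4d, the ligand of plexin-B1, had 3.83 FPKM in female KO and 3.02 in female WT cells, 6.58 in male KO and 9.76 in male WT cells, and 8.46 in KI and 9.14 in Ctrl-KI cells. Sema4b had log2 ratios from -0.06 to 0.33, each of which changed sign under some scaling. Sema4g was kept only in females, at 7.57 FPKM in KO and 4.13 FPKM in WT cells. Sema5a was kept in males, at 4.93 FPKM in KO and 2.17 FPKM in WT cells, and in the KI table, at 1.19 FPKM in KI and 2.21 FPKM in Ctrl-KI cells with intervals apart.

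Of the receptors for these ligands, neuropilin-2 was higher in every mutant. Nrp2, which lies on mm9 chromosome 1 from 62749858 to 62865266 and binds class 3 semaphorins and VEGF-C, had 39.1 FPKM in female KO and 11.1 FPKM in female WT cells. The log2 ratio was 1.73 and the intervals, 16.4 to 61.9 and 4.92 to 17.2, just overlapped. It had 3.72 FPKM in male KO and 1.73 FPKM in male WT cells (log2 ratio 0.79, overlapping intervals), and 4.76 FPKM in KI and 0.649 FPKM in Ctrl-KI cells (log2 ratio 1.81, intervals apart). The Ctrl-KI value lies under the filter, so the KI column alone kept this gene in that table.

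The plexins are the signalling receptors of the semaphorins. The 9 genes summed to 159 FPKM in female KO and 163 in female WT cells, 175 in male KO and 159 in male WT cells, and 128 in KI and 157 in Ctrl-KI cells. Plxna1, the highest plexin in the male and KI tables, had 82.0 FPKM in male KO and 73.5 in male WT cells (lower under TPM over all loci), 52.0 in KI and 69.3 in Ctrl-KI cells, and 39.5 in female KO and 29.8 in female WT cells. Plxna2, a receptor of class 3 and class 6 ligands, was lower in all 3 mutants. It had 7.92 FPKM in female KO and 9.95 FPKM in female WT cells (log2 ratio -0.30), 12.8 FPKM in male KO and 31.0 FPKM in male WT cells (log2 ratio -1.22), and 14.3 FPKM in KI and 29.1 FPKM in Ctrl-KI cells (log2 ratio -0.98). Its intervals were apart in the KI table, 11.6 to 16.9 against 23.6 to 34.6, and overlapped in the others. Plxna3 was 2-fold lower in females, at 7.03 FPKM in KO and 15.6 FPKM in WT cells (log2 ratio -1.05), and near its control elsewhere, at 5.01 in male KO and 5.93 in male WT cells and at 5.57 in KI and 5.74 in Ctrl-KI cells. Plxnd1, the Sema3E receptor, had 59.1 FPKM in female KO and 42.6 in female WT cells, 8.10 in male KO and 4.91 in male WT cells, and 5.87 in KI and 4.56 in Ctrl-KI cells, and its male and KI differences changed sign under TPM over all loci. Plxnb1 and Plxnb2 lay below WT in female KO cells and above it in male KO cells, with the male direction turned by TPM over all loci. Plxna4, Plxnb3 and Plxnc1 stayed under 1 FPKM in every column.

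Ephrin-B2 was higher in all 3 mutants, under every scaling run. Efnb2, which lies on mm9 chromosome 8 from 8617439 to 8660773, had 14.5 FPKM in female KO and 4.85 FPKM in female WT cells, a log2 ratio of 1.40 with intervals of 6.71 to 22.2 and 1.85 to 7.85. It had 32.3 FPKM in male KO and 5.91 FPKM in male WT cells, a log2 ratio of 2.27 with intervals of 9.84 to 54.8 and 1.16 to 10.7. For KI the gene had 14.0 FPKM in KI and 5.60 FPKM in Ctrl-KI cells, a log2 ratio of 1.18 with intervals of 11.3 to 16.6 and 4.52 to 6.69. The 3 control columns thus lay between 4.85 and 5.91 FPKM, and all 3 mutant columns above them, although the intervals were apart only in the KI table. Its relative Efnb1, an X-linked gene, was 5.15 FPKM in female KO and 8.56 in female WT cells, 22.1 in male KO and 29.4 in male WT cells, and 35.1 in KI and 30.5 in Ctrl-KI cells, where TPM over all loci turned the direction. Efnb3 was kept only in females, at 2.2 FPKM in KO and 1.45 FPKM in WT cells.

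A-type ephrins were low. Efna5 was the member with the highest ratios in the knockouts, at 2.49 FPKM in female KO and 0.821 FPKM in female WT cells (log2 ratio 0.94) and at 8.70 FPKM in male KO and 1.57 FPKM in male WT cells (log2 ratio 1.92). In the KI table it had 1.36 FPKM in KI and 1.27 FPKM in Ctrl-KI cells, a direction that TPM over all loci turned. Efna4 was 2-fold higher in males, at 9.52 FPKM in KO and 3.78 FPKM in WT cells, with intervals of 0.395 to 18.6 and 0 to 7.86, and was 2.28 in female KO against 2.66 in female WT cells. Efna1, Efna2 and Efna3, which with Efna4 did not exceed 4.12 FPKM in the KI table, had KI log2 ratios of 0.47, 0.44 and 0.37, of which those of Efna2 and Efna3 changed sign under TPM over all loci. Efna1, Efna3 and Efna4 lie side by side on mm9 chromosome 3 between 89075582 and 89141950.

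The EphB receptors of the B-type ephrins did not share a direction. Ephb2 had 3.43 FPKM in female KO and 5.27 FPKM in female WT cells (log2 ratio -0.50), 18.2 FPKM in male KO and 45.2 FPKM in male WT cells (log2 ratio -1.27), and 17.7 FPKM in KI and 31.6 FPKM in Ctrl-KI cells (log2 ratio -0.80, intervals apart). It was lower in each mutant. Ephb3 was lower in both knockouts and higher in KI cells. It had 9.89 FPKM in female KO and 19.0 FPKM in female WT cells (log2 ratio -0.88), 4.60 FPKM in male KO and 12.7 FPKM in male WT cells (log2 ratio -1.29), and 27.1 FPKM in KI and 15.2 FPKM in Ctrl-KI cells. The KI log2 ratio was 0.79 with intervals apart, and -0.01 under TPM over all loci. Ephb4, the main ephrin-B2 receptor of veins, was higher in each mutant as deposited. It had 11.2 FPKM in female KO and 8.22 in female WT cells, 13.1 in male KO and 5.24 in male WT cells (log2 ratio 1.18), and 8.39 in KI and 5.34 in Ctrl-KI cells, where the direction changed under TPM over all loci.

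Ephb6, an Eph receptor without kinase activity, showed the highest ratio of the guidance genes in a single sex. It had 18.0 FPKM in male KO and 1.43 FPKM in male WT cells, with intervals of 5.02 to 31.0 and 0 to 2.98 apart from each other and a log2 ratio of 2.97. The female values were 1.19 FPKM in KO and 1.43 in WT cells, and the KI table had 2.09 in KI and 2.27 in Ctrl-KI cells. The high value was thus that of 1 library, male KO, in which the endothelial markers summed to 74.6 FPKM, against 3.56 FPKM in male WT, and their part in it was not tested.

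EphA receptors were led by Epha2, the most abundant Eph receptor in female KO, male KO and female WT cells. Epha2 had 81.8 FPKM in male KO and 24.4 FPKM in male WT cells (log2 ratio 1.70), 18.3 FPKM in female KO and 20.4 FPKM in female WT cells (log2 ratio -0.15, or 0.02 under either TPM scaling), and 26.8 FPKM in KI and 18.3 FPKM in Ctrl-KI cells. The KI log2 ratio was 0.53 with intervals apart, and -0.26 under TPM over all loci. Epha4, which binds both ephrin types, had 3.08 FPKM in female KO and 1.15 in female WT cells (log2 ratio 0.92), 4.89 in male KO and 1.61 in male WT cells (log2 ratio 1.17), and 1.97 in KI and 1.27 in Ctrl-KI cells (log2 ratio 0.39, or -0.11 under TPM over all loci). Epha1 was 4.13 FPKM in male KO and 0.537 in male WT cells, with an interval of 0 to 27.0 in the KO column. Epha3 was 0.348 FPKM in male KO and 1.47 in male WT cells, Epha7 1.40 and Epha8 1.02 FPKM in the single KO column that kept each. Epha5, Epha6, Epha10 and Ephb1 were never kept.

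**Figure D3:**
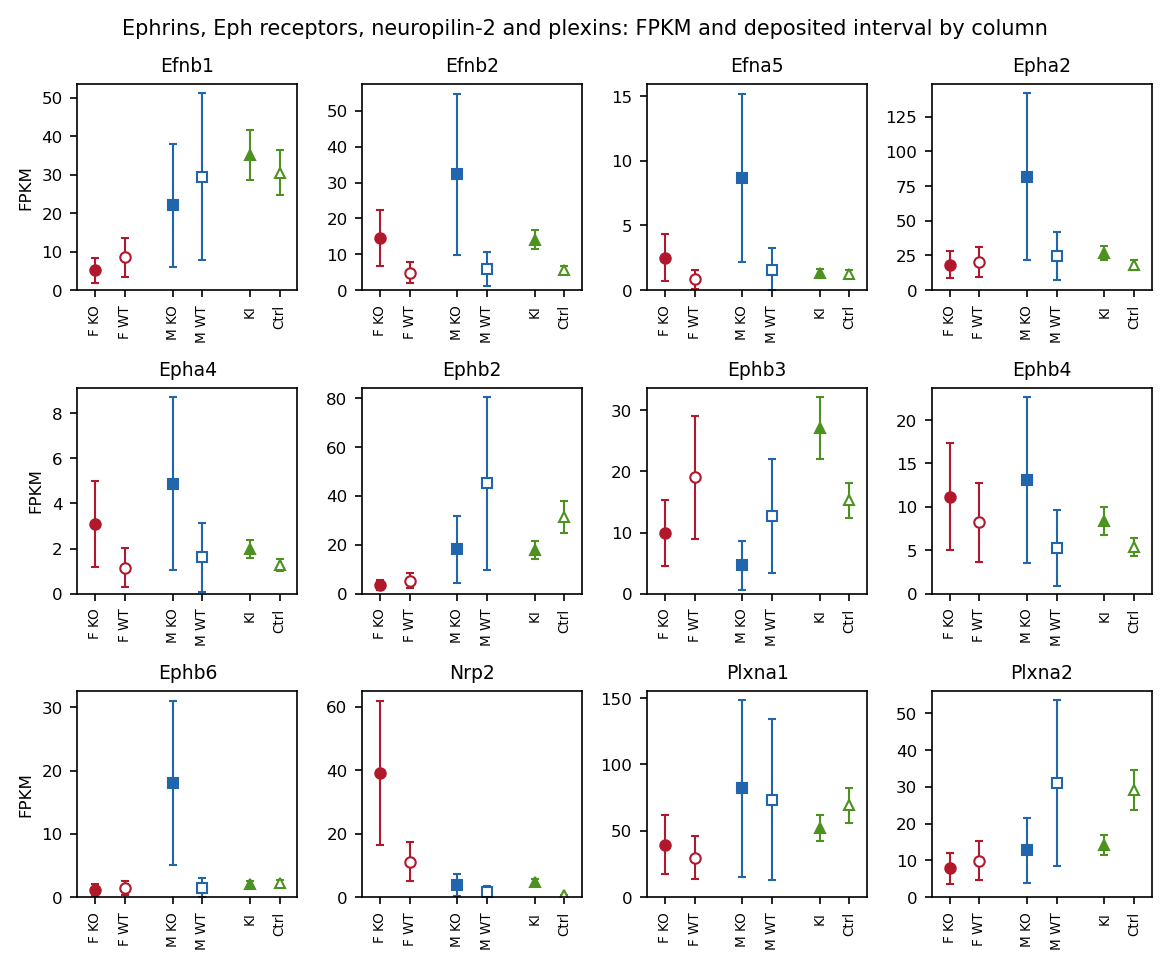
FPKM of 12 ephrin, Eph, neuropilin and plexin genes by column, with the deposited interval as the bar. Filled symbols are female KO, male KO and KI, open symbols female WT, male WT and Ctrl-KI; F and M stand for female and male. Efnb2 is between 4.85 and 5.91 FPKM in the open symbols and above 13 in the filled ones, and Ephb6 is high only in the male KO column.

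The makeup of some families differed between columns more than their sum did. Efnb2 made up 66.3% of the summed B-type ephrin FPKM in female KO and 32.6% in female WT cells, 59.2% in male KO and 16.6% in male WT cells, and 28.3% in KI and 15.3% in Ctrl-KI cells. Ephb2 made up 33.7% of the summed EphB FPKM in male KO and 69.9% in male WT cells, while the EphB sum was 54.0 FPKM in male KO and 64.5 in male WT cells. Sema3b made up 21.1% of the class 3 sum in female KO and 51.7% in female WT cells. The class 3 sum itself was 58.9 FPKM in KI and 118 FPKM in Ctrl-KI cells, 21.0 in female KO and 37.3 in female WT cells, and 149 in male KO and 126 in male WT cells. These shares are within a column and do not move with the scaling of a library.

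**Figure D4:**
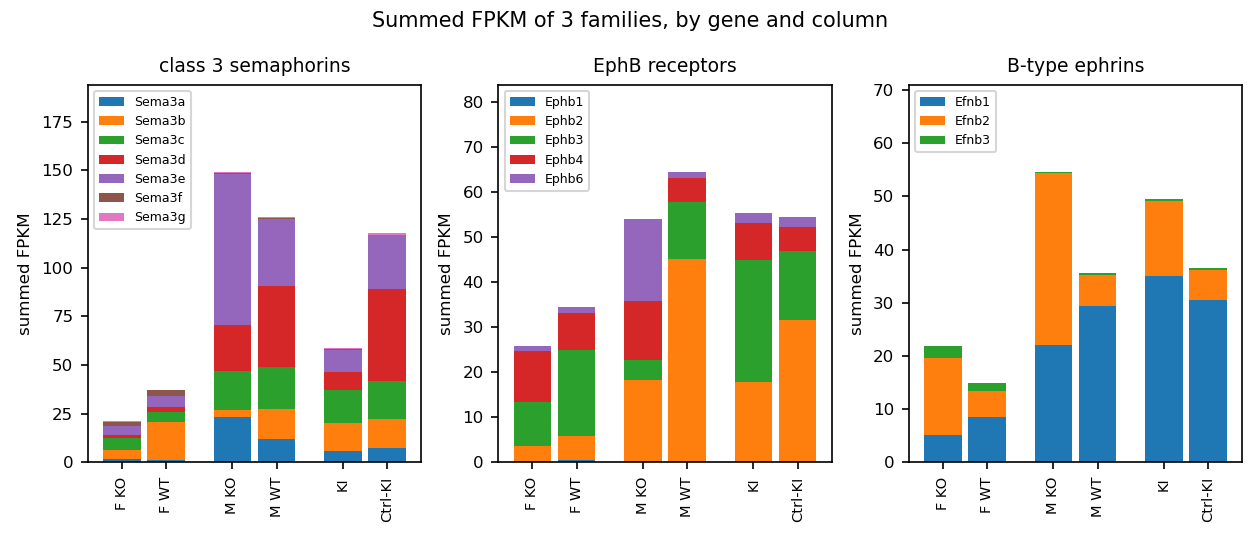
Summed FPKM of the class 3 semaphorins, EphB receptors and B-type ephrins in each column, stacked by gene, with bars starting at 0. Efnb2 takes 59.2% of the B-type ephrin sum in male KO and 16.6% in male WT, and the class 3 sum is 58.9 FPKM in KI and 118 FPKM in Ctrl-KI.

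With each sex taken as 1 measurement of the KO effect, no guidance gene passed at an adjusted p of 0.05. The female and male ratios of 10482 genes kept in both KO tables were fitted with limma against 0, with 1 residual degree of freedom, so that a difference between the sexes and an error of the libraries cannot be told apart. At the adjusted threshold 0 of the 32 guidance genes kept in both tables and 0 of all genes (0% in each direction) passed. At an unadjusted p under 0.05, limma gave 6 guidance genes higher, against 9.54% of all genes, and 6 lower, against 10.3% of all genes. The higher ones were Efnb2, Sema6d, Efna5, Nrp2, Epha4 and Ephb4, and the lower ones Sema3b, Ephb3, Sema6c, Sema3d, Ephb2 and Plxna2. Efna5 passed the female filter through the KO column alone, which fixed its female direction. Sema3b had a mean log2 ratio of -1.89 ± 0.24 (moderated SE) and Efnb2 one of 1.84 ± 0.30, both with a limma adjusted p of 0.0922. When only genes with at least 5 FPKM in a column of each table were fitted, Efnb2 and Sema3b passed, 1 higher and 1 lower of 18 guidance genes, where 0.543% of all 7732 genes were higher and 1.14% lower. Sema6d, at 1.09 ± 0.25, and Nrp2, at 1.26 ± 0.31, had limma adjusted p-values of 0.114 and 0.124.

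Past 1.5-fold in the same direction in both sexes were Nrp2, Epha4, Efna5, Sema6d and Efnb2 as higher genes, 5 of 32 where 6.0% of all genes were, and Ephb3, Sema6c, Sema3d and Sema3b as lower genes, 4 of 32 where 6.45% were. With the KI table included, 8 of the 32 genes lay above the control in every table, against 18.3% of all genes, and 5 below it, against 31.1%. Of these 13, the directions of Efnb2, Nrp2 and Sema7a (above) and of Ephb2, Plxna2 and Sema3d (below) also held in all 3 tables under median centring and both TPM scalings. Efna5 in females and Nrp2 in the KI table passed the filter through the mutant column alone, which fixed their direction there.

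**Figure D5:**
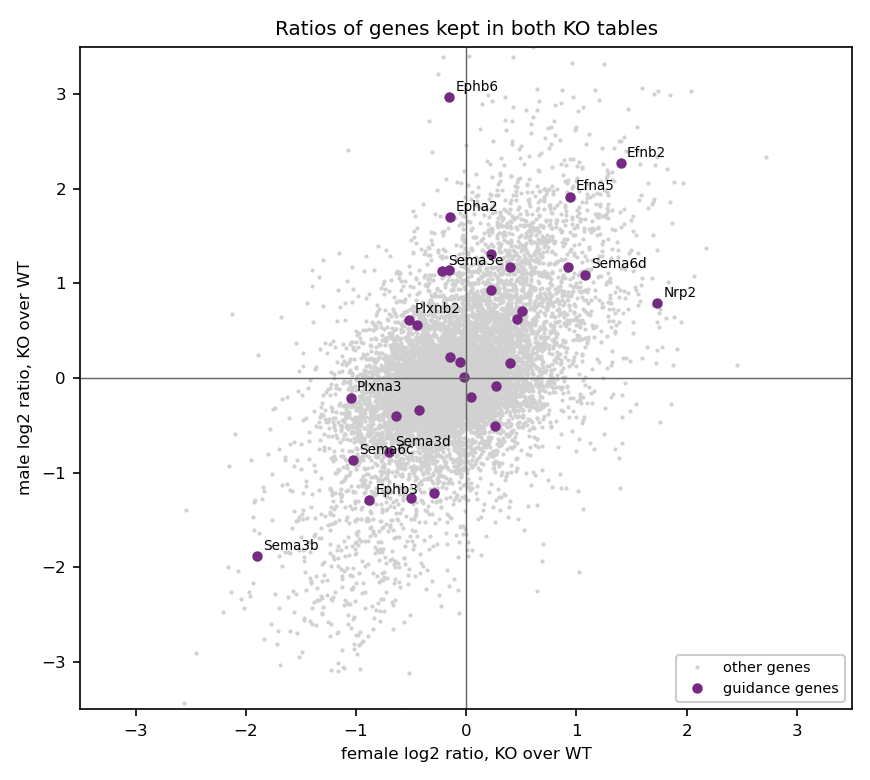
Log2 ratio of KO over WT in females (x axis) and in males (y axis) for genes kept in both KO tables, with the 32 guidance genes as large points and other genes in grey. Both axes end at 3.5, which leaves out 27 of 10482 genes and none of the guidance genes. Sema3b is at the lower left and Efnb2 at the upper right, whereas Ephb6 and Epha2 are high in males only.

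The sequences before the transcription start are shown for 4 of the genes on which these comparisons turn: Efnb2 and Nrp2, higher in every mutant, Ephb2, lower in every mutant, and Ephb3, lower in the knockouts and higher in KI cells as deposited. Each is the 250 bases before the start on the gene's own strand, from RefSeq on GRCm38.p6, a later build than the mm9 of the expression tables. The regions are chr8:8661243-8661492 on the minus strand for Efnb2, chr1:62703067-62703316 on the plus strand for Nrp2, chr4:136836013-136836262 on the minus strand for Ephb2 and chr16:21204545-21204794 on the plus strand for Ephb3. Capitals mark E-boxes (CANNTG), the core sequence bound by MyoD-family and other basic helix-loop-helix factors.
Efnb2: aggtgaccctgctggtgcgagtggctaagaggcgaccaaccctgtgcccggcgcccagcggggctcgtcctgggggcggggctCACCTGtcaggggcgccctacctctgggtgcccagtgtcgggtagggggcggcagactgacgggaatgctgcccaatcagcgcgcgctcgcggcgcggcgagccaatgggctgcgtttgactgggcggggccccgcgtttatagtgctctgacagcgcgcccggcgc
Nrp2: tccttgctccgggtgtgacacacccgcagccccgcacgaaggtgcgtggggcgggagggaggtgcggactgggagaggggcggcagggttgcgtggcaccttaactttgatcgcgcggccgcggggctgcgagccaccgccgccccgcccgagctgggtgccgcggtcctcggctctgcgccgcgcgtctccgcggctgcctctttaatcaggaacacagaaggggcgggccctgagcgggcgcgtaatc
Ephb2: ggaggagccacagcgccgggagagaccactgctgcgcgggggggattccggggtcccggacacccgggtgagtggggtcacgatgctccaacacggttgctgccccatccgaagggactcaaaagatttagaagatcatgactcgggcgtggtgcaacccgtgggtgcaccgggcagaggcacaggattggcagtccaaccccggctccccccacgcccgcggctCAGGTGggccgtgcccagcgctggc
Ephb3: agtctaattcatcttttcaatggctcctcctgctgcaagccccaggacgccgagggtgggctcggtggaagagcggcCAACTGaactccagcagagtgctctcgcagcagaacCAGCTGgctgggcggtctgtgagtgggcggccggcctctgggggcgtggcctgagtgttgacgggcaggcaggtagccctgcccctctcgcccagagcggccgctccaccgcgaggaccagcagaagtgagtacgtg
Efnb2 and Ephb2 each held 1 E-box, Ephb3 held 2 and Nrp2 held 0. The motif reads the same on both strands, and the form CAGCTG, preferred by muscle factors and counted within CANNTG, occurred once, in Ephb3. Of all 32851 RefSeq windows of this length 66.2% held CANNTG and 13.0% CAGCTG. Of the 47 windows of 36 kept guidance genes 22 held CANNTG and 5 CAGCTG. The guidance windows had a median of 16 CG dinucleotides and 64.8% GC, against 6 and 52.4% over all windows, so they were richer in G and C. They come only from genes kept by their FPKM, whereas all windows include genes that were not kept. Windows of all kept genes were not counted, so these contrasts cannot be put down to the families. Sema3b, Sema3f, Sema6a, Plxna1 and Efnb3 had no entry.

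Genes that act with these receptors, and other guidance families, were described from a list of 76 genes. Past 2-fold in female KO cells were 4 of the 57 kept loci as higher and 1 as lower, where 4.49% and 4.40% of all genes were. In male KO cells 13 of 54 were higher and 4 lower, where 9.90% and 6.47% of all genes were. In KI cells 5 of 50 were higher and 0 lower, where 3.86% and 0.893% of all genes were. Their median log2 ratio was 0.16 in females, 0.11 in males and 0.10 in the KI table, where the medians of all genes were -0.08, -0.02 and -0.04.

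Of the semaphorin partners, Dpysl3, a cytosolic collapsin response mediator protein, had 45.2 FPKM in male KO and 5.50 FPKM in male WT cells (log2 ratio 2.83) and 31.0 FPKM in KI and 5.11 FPKM in Ctrl-KI cells (log2 ratio 2.39). In females it had 12.8 FPKM in KO and 8.49 FPKM in WT cells, and there the related Dpysl2 was the highest, at 21.6 FPKM in KO and 6.64 FPKM in WT cells. Erbb2, a kinase that associates with B-type plexins, was the lowest partner in both knockouts. It had 25.5 FPKM in female KO and 52.1 FPKM in female WT cells, and 12.6 FPKM in male KO and 47.9 FPKM in male WT cells. Lowest in the KI table was the monooxygenase gene Mical3, at 6.88 FPKM in KI and 10.8 FPKM in Ctrl-KI cells.

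Of the Eph partners 0 of 18 were past 2-fold in females, where 4.49% of all genes were higher and 4.40% lower. In KI cells 0 of 19 were, where 3.86% of all genes were higher and 0.893% lower. In males 4 of 20 were higher and 2 lower, where 9.90% and 6.47% of all genes were. The shares of all genes past 2-fold were thus also largest in males, and the difference between the comparisons was not tested. Rasa1, a Ras GTPase-activating protein that binds Eph receptors, had 89.4 FPKM in male KO and 22.6 FPKM in male WT cells (log2 ratio 1.94), and the adaptor gene Grb10 had 40.5 FPKM in male KO and 86.1 FPKM in male WT cells (log2 ratio -1.07). In females the lowest of them was Chn1, at 17.3 FPKM in KO and 29.2 FPKM in WT cells. The extremes in the KI table were Pdzrn3, at 13.9 FPKM in KI and 10.2 in Ctrl-KI cells, and Grb10, at 77.6 in KI and 121 in Ctrl-KI cells.

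Other guidance ligands and receptors were also described. The netrin receptor Unc5b had 21.6 FPKM in female KO and 10.8 FPKM in female WT cells, 26.7 in male KO and 6.20 in male WT cells, and 15.6 in KI and 5.16 in Ctrl-KI cells, which made it higher in each mutant. Slit3, a ligand of Robo receptors, was the highest of the list in females, at 3.82 FPKM in KO and 0.949 in WT cells, and in the KI table, at 2.83 in KI and 0.00600 in Ctrl-KI cells. The fibro-adipogenic markers were higher as a sum in the same columns, though not every gene of that list was. Their sum was also higher in male KO cells, where Slit3 was 0.0086 FPKM, against 0.0064 in male WT cells. The part of those markers in the Slit3 values was not tested. The lowest were Unc5a in females, at 1.80 FPKM in KO and 3.81 in WT cells, Rgma in males, at 6.85 in KO and 13.0 in WT cells, and Rgmb in the KI table, at 29.1 in KI and 56.4 in Ctrl-KI cells. Of the VEGF family, whose members share neuropilins with the semaphorins, placental growth factor Pgf had 39.5 FPKM in female KO and 13.2 in female WT cells, and 3.52 in male KO and 1.06 in male WT cells.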

How the data were processed

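RNA-seq was made from total RNA of differentiating myoblasts, per the labels' protocols. The mm9 build, Cuffdiff, edgeR, Cufflinks 2.2.1, TopHat2 2.0.12, Bowtie2 2.2.4, bedtools 2.16.2 and HTSeq 0.6.1 are named per the submitters' processing notes. Neither the role of each nor the annotation used is stated in these sources. The authors deposited FPKM, per the file headers, with a lower and an upper confidence bound for 2 columns in each of 3 gene tables. The confidence level is not stated. FPKM keeps no read total, so depth is unknown. The most frequent mutant-to-control ratio of values under 0.3 FPKM, which move in steps of single reads, was 0.660 in females, 0.986 in males and 0.847 for KI. Strand use in counting is not stated, so overlapping genes and close paralogues are uncertain.

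Loci with no symbol (0, 5680 and 5971) or a status other than OK (6, 61 and 15) were left out. Starts are printed 1 higher than in the tables. Ratios used a pseudocount of 1 FPKM, which understates the change of low genes. The KI table held 1 pooled column per group, so the replicate test planned for it was replaced by a ratio. Female and male ratios were fitted together with limma 3.58.1 (R 4.3.3, mean-variance trend, Benjamini-Hochberg over all genes). The fit was first run on simulated data with changes larger than any guidance ratio here, so its power at smaller changes was not checked. Tables were handled with python 3.11.15 and pandas 2.3.3. Levels were not tested across tables. The members, lists and settings were chosen with earlier results of these data known. Named genes are the members of the families, the extremes of each partner list (1 is not reported here), Kdm6a, Myog, and genes picked after their values were seen (Dpysl2 and Dpysl3 beyond their extremes, Unc5b, Pgf, Vegfa, Col1a1, Lum, Tie1, Itgam and Pdgfrb). Marker lists are given by their sums, with and without their top gene where it carries most of a sum. Alternatives were other pseudocounts, filters, scalings and call rules.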

Additional observations from a re-analysis of the deposited data

Results flagged for a closer look

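Plxnb1 and Plxnb2, receptors of Sema4D and Sema4C, lay in opposite directions in the knockouts of the 2 sexes. Plxnb1 had a log2 ratio of -0.45 in female KO (6.21 FPKM in KO and 8.82 in WT cells) and of 0.57 in male KO (6.92 FPKM in KO and 4.35 in WT cells). Plxnb2 had a log2 ratio of -0.52 in female KO (38.3 FPKM in KO and 55.4 in WT cells) and of 0.62 in male KO (59.8 FPKM in KO and 38.6 in WT cells). The deposited intervals overlapped in each case and the difference between the sexes was not tested. Under TPM over all loci the male log2 ratios were -0.09 for Plxnb1 and -0.16 for Plxnb2, and the opposition was gone.

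Neuropilin-1, the co-receptor of Sema3A, was estimated together with Mir1903 as 1 locus and so did not enter the comparisons. This locus had 6.21 FPKM in female KO and 4.69 in female WT cells (log2 ratio 0.34), 18.6 FPKM in male KO and 3.11 in male WT cells (log2 ratio 2.25), and 12.9 FPKM in KI and 5.29 in Ctrl-KI cells (log2 ratio 1.14). The intervals were apart only in the KI table.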

How the results depend on the processing

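No gene past 2-fold changed direction under any alternative run, but the counts of guidance genes past 2-fold depended on the settings. In females the counts as reported were 3 higher and 3 lower. They were 6 higher with a pseudocount of 0.1 FPKM, 1 higher and 1 lower with 5 FPKM, 5 and 1 with median centring, 7 and 1 with either TPM scaling (of 44 genes, since the filter and pseudocount of 1 then apply to TPM), 7 and 6 at 1.5-fold, and 0 and 1 by intervals apart. Of all 12344 female genes 1524 were higher and 1931 lower at 1.5-fold, and 0.664% and 0.235% by intervals apart. In males the guidance counts were 11 higher and 4 lower as reported, 5 higher with a pseudocount of 5 FPKM, 3 and 9 with TPM over all loci (of 32), 18 and 7 at 1.5-fold, and 1 and 0 by intervals apart. Of all 11440 male genes 2121 were higher and 1578 lower at 1.5-fold, and 0.603% and 0.262% by intervals apart. In the KI table the guidance counts were 3 and 2 as reported, 0 and 1 with a pseudocount of 5 FPKM, 1 and 6 with TPM over all loci (of 33), 9 and 5 by intervals apart (8.27% and 3.73% of all genes), and 4 lower at 1.5-fold (365 of all 11084 genes). For the pseudocount, centring and TPM alternatives the share of all genes past 2-fold was not counted. TPM over all loci moved the median ratio of all genes to -0.70 in males and -0.77 in the KI table. On the genes kept by FPKM, an alternative chosen after seeing the data, both TPM scalings gave 6 and 1 in females, and TPM over all loci gave 3 and 9 in males and, for KI, 1 and 6; the further female gene at 7 came from the gene set. In the joint fit with limma 0 were called in each direction, and the smallest limma adjusted p of a guidance gene ran from 0.0114 to 0.663 over the alternatives. With a filter of 5 FPKM 1 was higher and 1 lower, where 42 of all 7732 genes were higher and 88 lower, and with TPM over all loci 1 of 31, Sema3b, was lower, where 52 of all 9765 genes were higher and 93 lower. Of 642 single-gene values under alternatives, 614 stayed within the range that the deposited bounds allow and 28 did not. This total is a weak check. No filter, a filter of 5 FPKM and every status kept cannot change a ratio, so their 82, 70 and 82 values stayed by construction. The range sets the low bound of 1 column against the high bound of the other, and so is wide in the KO tables. TPM over all loci moved 23 values and left 57. No paired analysis was possible because the replicates that carry numbers, those of the KI and Ctrl-KI groups, are pooled in 1 column each; the joint fit pairs KO with WT by sex. Leaving out a replicate could not be run, since the KO and WT groups hold 1 library each. The width of the deposited intervals, most of all in males, limits what single genes can show.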

Other observations

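Several guidance genes stood at different levels in the 3 control columns, which were estimated separately and were not tested against each other. In female WT, male WT and Ctrl-KI cells, in this order, Plxnd1 was 42.6, 4.91 and 4.56 FPKM and Nrp2 was 11.1, 1.73 and 0.649 FPKM. Sema3d ran the other way, at 2.90, 41.5 and 47.6 FPKM, as did Ephb2, at 5.27, 45.2 and 31.6 FPKM. Vegfa, a neuropilin ligand, was 1512, 87.1 and 72.0 FPKM, and the collagen gene Col1a1 was 127, 1.08 and 0.515 FPKM. The deposited interval of Vegfa in female WT cells ran from 37.0 to 2987 FPKM and so took in its male WT and Ctrl-KI values. Efnb2, Sema3b and Sema4c varied far less between these columns, Efnb2 from 4.85 to 5.91 FPKM. The female WT library thus stood apart from the other control columns in some of these genes. The female, male and KI tables also differed in their loci without a symbol (0, 5680 and 5971). Library, sex and the making of each table cannot be told apart here, and the cause of these differences was not tested.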
